A study of Mus musculus with 6 samples.

Results

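The globin and red cell genes measured here were the 4 adult globin genes of the mouse (Hba-a1, Hba-a2, Hbb-bs and Hbb-bt), the erythroid heme synthesis enzyme Alas2, the red cell enzyme Bpgm, and the membrane proteins Slc4a1 and Epb42. They were chosen by gene symbol alone, as known red cell genes, with earlier results of these data known. Of 9 listed symbols, 8 were found among the 21989 symbols of the deposited table. The ninth, Ahsp, which encodes a chaperone of free alpha globin, is not analysed here.

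Polyadenylated RNA was sequenced from the left ventricle of male C57BL/6 mice of specific-pathogen-free grade. One group had received ISO at 10 mg/kg/d under the skin for 3 weeks and is labelled a heart failure group. By common usage ISO stands for isoproterenol, an agonist of beta-adrenergic receptors. The other group had received the same volume of normal saline and is labelled sham. No age, transgene or genetic change is given for either group. Each group held 3 libraries, called saline 1 to 3 and ISO 1 to 3. No label ties a library to a named animal, although the libraries are called biological repeats, and the p-values therefore measure only how these samples spread. The sources used here do not say whether blood was flushed from the hearts before freezing.

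Hemoglobin, the oxygen carrier of the blood, is built from a pair of alpha chains and a pair of beta chains, each holding a heme. Mature red cells of mammals have no nucleus and make no new RNA, but young red cells (reticulocytes) still carry large amounts of globin mRNA made earlier in the bone marrow. Alas2 makes the first committed compound of heme in erythroid cells, Bpgm makes the 2,3-bisphosphoglycerate that lowers the oxygen affinity of hemoglobin, Slc4a1 (band 3) exchanges chloride and bicarbonate and anchors the membrane skeleton, and Epb42 (protein 4.2) binds band 3.

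The copies within each chain are so alike that their separate values are uncertain, and the sequences below show by how much. In the GENCODE M21 annotation of GRCm38, the coding sequences of Hba-a1 and Hba-a2 (429 bases each) were 99.8% identical and differed by 1 substitution, C381T. Those of Hbb-bs and Hbb-bt (444 bases each) were also 99.8% identical and differed by C417T. Positions are counted from 1 at the first base of the start codon, the first-named gene's base stands first, and each difference lies at the third base of its codon (codons 127 and 139). The differing base is in capitals in these stretches, bases 351 to 411 of the alpha genes and bases 387 to 444 of the beta genes.
Hba-a1: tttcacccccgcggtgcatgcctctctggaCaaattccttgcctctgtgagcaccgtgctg
Hba-a2: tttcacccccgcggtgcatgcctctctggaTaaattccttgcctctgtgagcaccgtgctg
Hbb-bs: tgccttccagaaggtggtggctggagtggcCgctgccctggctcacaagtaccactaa
Hbb-bt: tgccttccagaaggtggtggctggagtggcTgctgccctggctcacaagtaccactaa

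A read that misses the differing base and lies within the coding sequence cannot be given to 1 copy, and the longest identical run was 380 bases in the alpha pair and 416 bases in the beta pair. The sources used here do not say how reads shared by copies were counted. The summed alpha and summed beta values depend on this less than the single genes do.

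The bases before the gene starts are shown because the genes of this group are known to be switched on together in erythroid cells, through GATA1, KLF1 and CCAAT-binding factors. In the RefSeq promoter table of GRCm38.p6, 7 of the genes had an entry, and Slc4a1 had none. The 120 bases before the start are printed 5′ to 3′ on the gene's strand, with capitals marking 4 motifs on either strand: the GATA motif (AGATAA or TGATAA), the KLF1 core (CACCC), the CCAAT box and the TATA box (TATAAA).
Hba-a1, chr11:32283552-32283671, plus strand: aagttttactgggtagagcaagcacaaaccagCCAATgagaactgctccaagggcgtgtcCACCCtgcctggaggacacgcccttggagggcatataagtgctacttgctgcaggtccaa
Hbb-bs, chr7:103827929-103828048, minus strand: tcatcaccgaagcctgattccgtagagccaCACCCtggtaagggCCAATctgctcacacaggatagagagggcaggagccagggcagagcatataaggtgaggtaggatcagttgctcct
Hbb-bt, chr7:103813924-103814043, minus strand: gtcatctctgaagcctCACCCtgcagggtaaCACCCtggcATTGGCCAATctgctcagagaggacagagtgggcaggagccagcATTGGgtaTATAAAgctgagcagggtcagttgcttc
Alas2, chrX:150547297-150547416, plus strand: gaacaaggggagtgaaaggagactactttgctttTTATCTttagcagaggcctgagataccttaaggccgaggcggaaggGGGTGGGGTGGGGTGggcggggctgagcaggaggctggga
Bpgm, chr6:34476236-34476355, plus strand: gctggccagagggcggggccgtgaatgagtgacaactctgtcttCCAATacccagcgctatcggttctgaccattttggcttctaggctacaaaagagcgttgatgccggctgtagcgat

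The sequence before Hba-a2 was the same as that before Hba-a1 over 247 bases, with the start placed 3 bases further on. Within 250 bases of the start, the GATA motif was found on either strand in 5 of the 7 promoters (both alpha genes, Hbb-bs, Alas2 and Epb42), against 16.6% of all 32851 promoters in the RefSeq table. Only that of Alas2 lay within 150 bases, where 9.65% of all promoters held one. CACCC, was found in 5 of 7 (the 4 globin genes and Alas2), against 52.0% of all promoters. CCAAT was found in 5 of 7 (the 4 globin genes and Bpgm), against 33.8%, and TATAAA in 3 of 7 (Hbb-bt, Alas2 and Epb42), against 12.4%. Within 150 bases TATAAA was found in 2 of 7 (Hbb-bt and Epb42), against 7.57%, and within the 120 bases shown only at Hbb-bt. The exact string misses variant forms: the printed Hba-a1 and Hbb-bs sequences hold catataag, so its absence does not show that a TATA box is lacking. Motifs that overlap each other were each counted. These are matches of letters, not measured binding sites.

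By their recovered totals the libraries held 2776152 to 9862363 reads, and saline 3 was the smallest. Saline 3 stood apart from the others: its Pearson r with them across genes was 0.884 to 0.905, against 0.965 or more among the other libraries, and genes shorter than 1000 bases took 18.8% of its reads on other genes, against 9.88 to 11.9% elsewhere. The globin mRNAs are short (559 to 639 bases in the lengths behind the deposited values), so their level in saline 3 is given beside every result. Genes of a list called ventricular cardiomyocyte were present in all libraries. Most of that list, such as the troponins, is expressed in the atria too. Myl7, the atrial myosin light chain, was however above Myl2, the ventricular form, in 5 of 6 libraries (Myl2 to Myl7 0.0168 to 0.172, and 1.22 in saline 3), so this pair of markers goes against the labelled chamber in those 5 libraries.

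Globin mRNA made up a larger share of every ISO library than of any saline library. Reads on the 4 globin genes took 0.388%, 0.214% and 0.187% of saline 1 to 3 and 0.825%, 0.852% and 1.69% of ISO 1 to 3 (0.263 ± 0.109% and 1.12 ± 0.491%, mean ± SD, n = 3 each). The exact Clopper-Pearson 95% intervals of these shares were narrow, from 0.181 to 0.192% in saline 3 and from 1.68 to 1.70% in ISO 3, so counting error was small beside the spread between libraries. Such intervals cover counting error only. In a bulk sample, a change in the number of red cells and a change in the RNA held by each cell cannot be told apart.

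Hba-a1, an alpha globin gene (chromosome 11, 32283672 to 32284486, RefSeq on GRCm38.p6), was the most abundant of these genes in all 6 libraries. Its level was 3131, 2063 and 1432 FPKM (reads per 1000 bases of the gene, scaled to the total of the library) in saline 1 to 3, and 6180, 6228 and 16367 FPKM in ISO 1 to 3. All ISO libraries were high and the groups did not overlap, with ISO 1 and ISO 2 nearly level and ISO 3 far above them. Among all genes in the table, Hba-a1 ranked 14, 13 and 71 in saline and 3, 3 and 1 in ISO. The difference of log2(FPKM + 1) was 2.03 (SE 0.49, 95% interval 0.88 to 3.18, unadjusted p = 0.00402, adjusted p = 0.699, limma with Benjamini-Hochberg adjustment over 12269 genes).

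Hba-a2, the second alpha gene (chromosome 11, 32296492 to 32297310), lay lower, at 1615, 983 and 1008 FPKM in saline and 2148, 2715 and 7263 FPKM in ISO. The groups did not overlap, but the gap was the narrowest of the 4 globin genes: the lowest ISO value was 1.33 times the highest saline value, against 1.97 times for Hba-a1. Its log2 difference was 1.57 (SE 0.49, unadjusted p = 0.0146, adjusted p = 0.699, limma), and 1.05 without ISO 3. Over both alpha genes the level was 3411 ± 1195 FPKM in the saline group and 13634 ± 8662 FPKM with ISO (n = 3 each), 4.0 times as high.

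The beta genes gave a more even picture in ISO. Hbb-bs (chromosome 7, 103826523 to 103827928, minus strand) was at 1517, 547 and 661 FPKM in saline and at 4732, 4501 and 4308 FPKM in ISO. Saline 1 was the high saline library, the ISO libraries lay close together, and the lowest ISO value was 2.84 times the highest saline value. The log2 difference was 2.46 (SE 0.41, 95% interval 1.51 to 3.42, unadjusted p = 4.61e-04, the third smallest of the 12269 genes; adjusted p = 0.699, limma).

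Hbb-bt (chromosome 7, 103812524 to 103813923, minus strand), the minor beta gene, was at 392, 136 and 119 FPKM in saline and at 889, 1012 and 1409 FPKM in ISO. Again saline 1 was the highest of its group and every ISO library lay above it. Its log2 difference of 2.54 (SE 0.48, unadjusted p = 9.80e-04, adjusted p = 0.699, limma) was the largest among these genes. The summed beta level was 1124 ± 682 FPKM in the saline group and 5617 ± 103 FPKM with ISO, 5.0 times as high.

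Alas2 (chromosome X, 150547417 to 150570622), the erythroid 5-aminolevulinate synthase, was at 27.9, 20.8 and 12.2 FPKM in saline and at 84.4, 73.3 and 162 FPKM in ISO. The groups did not overlap, the lowest ISO value was 2.63 times the highest saline value, and ISO 3 was the highest library, as it was for the alpha genes. The log2 difference was 2.32 (SE 0.41, 95% interval 1.37 to 3.28, unadjusted p = 6.58e-04, adjusted p = 0.699, limma).

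Bpgm (chromosome 6, 34476356 to 34505136) varied least among the saline libraries, at 20.8, 20.5 and 17.3 FPKM, and was at 55.7, 45.1 and 78.8 FPKM in ISO. All ISO libraries were above all saline libraries, the lowest by 2.17 times the highest saline value. The log2 difference was 1.54 (SE 0.27, 95% interval 0.91 to 2.16, unadjusted p = 6.09e-04, adjusted p = 0.699, limma). Its SE was the smallest of these genes, so that a smaller difference than that of Hba-a1 came with a smaller unadjusted p.

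**Figure D1:**
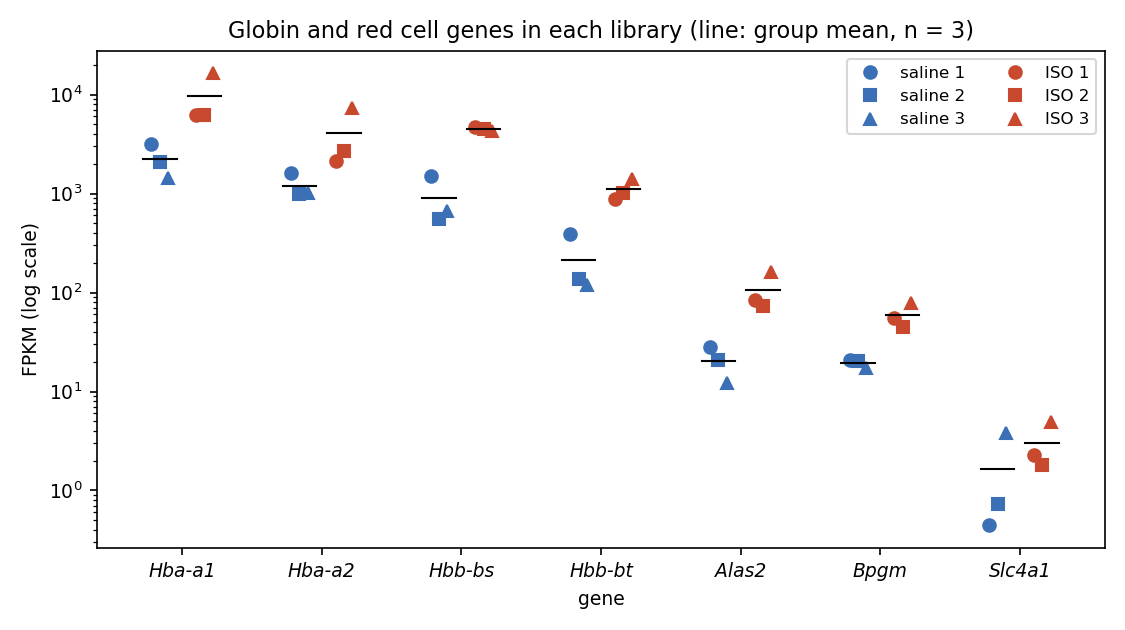
Level of each tested gene in each library, in FPKM on a log scale, with saline in blue, ISO in red, one symbol per library number and a line at the group mean (n = 3). For every gene but Slc4a1, all ISO points sit above all saline points, and for Hbb-bs the ISO points lie together between 4308 and 4732 FPKM.

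The membrane genes were low in the heart. Slc4a1 (chromosome 11, 102348820 to 102365281, minus strand) was at 0.446, 0.732 and 3.80 FPKM in saline and at 2.29, 1.79 and 4.97 FPKM in ISO, from 20, 21 and 48 reads and 77, 42 and 127 reads. The groups overlapped through saline 3, which was the highest saline library for this gene and the lowest for Hba-a1, Hbb-bt, Alas2 and Bpgm. The log2 difference was 0.73 (SE 0.53, 95% interval -0.53 to 1.99, unadjusted p = 0.213, adjusted p = 0.699, limma), and 1.26 without saline 3, when the groups no longer overlapped.

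Epb42 (chromosome 2, 121017891 to 121036877, minus strand) gave 2, 0 and 0 reads in saline and 6, 0 and 1 reads in ISO. Its values were 0.0488, 0 and 0 FPKM and 0.196, 0 and 0.0429 FPKM, and a count of 3 reads, the most that a count of 0 allows, would be 0.115 FPKM in saline 2, 0.260 FPKM in saline 3 and 0.140 FPKM in ISO 2. With a mean below 1 FPKM it was not tested. At this depth no difference was detectable, and no fold is given.

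None of the 7 genes tested passed an adjusted p of 0.05 with limma (0 of 7), nor did any of the 12269 genes (0%), and limma-voom on the recovered reads also called 0 of 7. At an unadjusted p under 0.05, 6 of the 7 were higher in ISO, against 4.92% of all genes tested. The groups did not overlap, with ISO higher, for the same 6 genes, against 12.8% of all genes. These 6 had a log2 difference of at least 1.5, against 1.30% of all genes. The cut of 1.5 lies just under the lowest of the 6 values (1.54, Bpgm). This last count therefore only describes the values and is no separate evidence. Across all genes tested the median difference was 0.20 and 68.1% lay above 0, so small positive differences are to be read against this shift. Scaling by median-of-ratios factors took the median to 0.021 and quantile normalization took it to -0.0031, and the lowest difference among the 7 genes, that of Slc4a1, was then 0.55 and 0.50. The 7 genes share libraries and, by background knowledge, a source in red cells, and are not 7 independent observations.

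Without saline 3, the differences ranged from 1.26 for Slc4a1 to 2.31 for Hbb-bs. In that fit 0 of the 7 and 0 of all genes passed an adjusted p of 0.05 (0.336 to 0.459 for the 7, limma). With sample quality weights, which give less weight to libraries that lie far from the fit (0.0772 for saline 3), 6 of the 7 passed, as did 4.25% of all genes in the same direction. The weighted log2 differences ran from 0.95 for Hba-a2 (adjusted p = 0.0800, not past the threshold) to 1.97 for Hbb-bs (adjusted p = 0.0174), and were smaller than the unweighted ones for all genes but Slc4a1 (0.97).

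**Figure D2:**
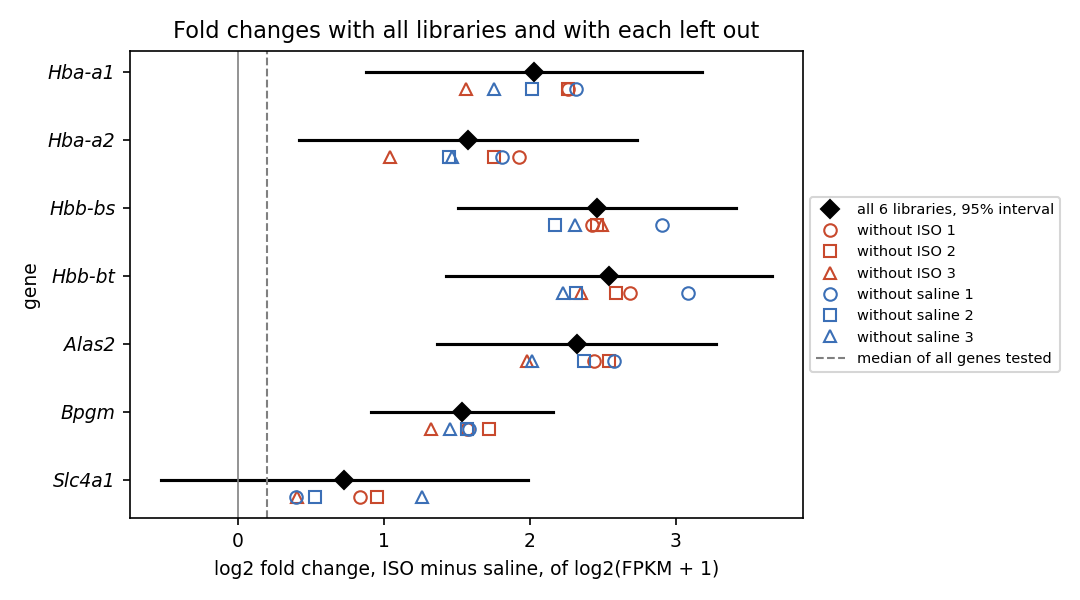
Difference of log2(FPKM + 1), ISO minus saline, for each tested gene, with its 95% interval from all 6 libraries (black) and the value with each library left out (open symbols, coloured by group). All values lie above 0, the interval of Slc4a1 reaches -0.53, and Hba-a2 moves to 1.05 without ISO 3.

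The ratios between chains do not depend on how the libraries were scaled. Hba-a1 was above Hba-a2 in every library, at 1.94, 2.1 and 1.42 times in saline and 2.88, 2.29 and 2.25 times in ISO. These groups did not overlap, with a log2 difference of 0.45, but 3 libraries against 3 cannot go below p = 0.1 in an exact two-sided permutation test, and the result was p = 0.1 (adjusted p = 0.3 over 3 ratios). Because the copies share nearly all of their coding sequence, this ratio carries the uncertainty of their separate counts.

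Hbb-bs was 3.88, 4.03 and 5.56 times Hbb-bt in saline and 5.32, 4.45 and 3.06 times in ISO. The groups overlapped (log2 difference -0.087, exact permutation p = 0.9, adjusted p = 0.9), and the sign turned without saline 3 (0.077) and without ISO 3 (0.14).

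Summed alpha was 2.49, 4.46 and 3.13 times summed beta in saline and 1.48, 1.62 and 4.13 times in ISO. ISO 3 lay with the saline libraries and ISO 1 and ISO 2 below them, so the groups overlapped (log2 difference -0.60, exact permutation p = 0.3, adjusted p = 0.45). The summed beta level in ISO was 5621, 5512 and 5717 FPKM in ISO 1 to 3, while the summed alpha level was 8328, 8944 and 23630 FPKM. The excess of ISO 3 was thus on the alpha side, and the values of Alas2 and Bpgm in ISO 3 were high too.

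**Figure D3:**
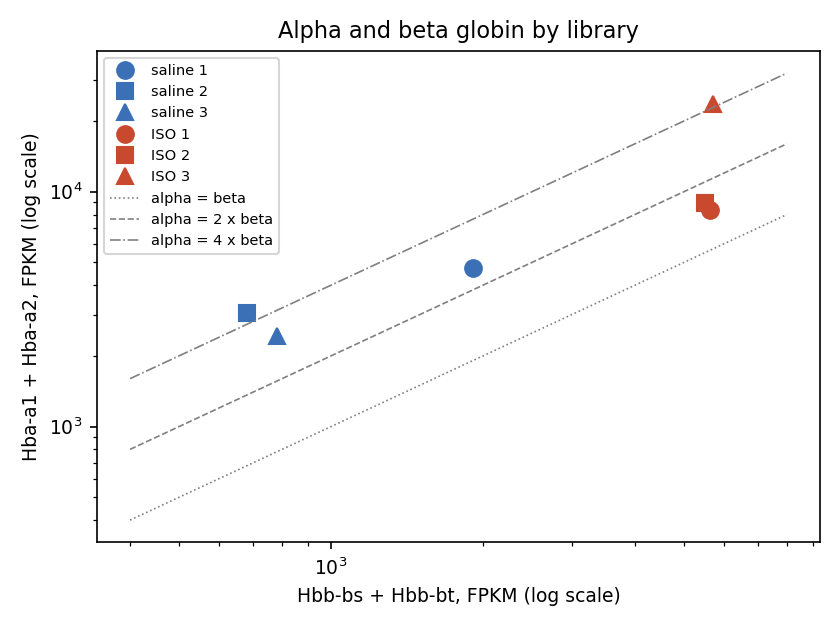
Summed alpha globin level against summed beta globin level in each library, in FPKM on log scales, with lines where alpha is 1, 2 or 4 times beta. The ISO libraries share a beta level near 5617 FPKM, and ISO 3 alone among them lies close to the line of 4.

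Set against Hbb-bs within each library, the other red cell genes gave no difference beyond the spread. Per 1000 FPKM of Hbb-bs, Alas2 was at 18.4, 38.0 and 18.4 FPKM in saline and 17.8, 16.3 and 37.5 FPKM in ISO (log2 difference -0.079, exact permutation p = 0.5). Bpgm was at 13.7, 37.5 and 26.1 FPKM in saline and 11.8, 10.0 and 18.3 FPKM in ISO (log2 difference -0.88, exact permutation p = 0.2). For Slc4a1 the values were 0.294, 1.34 and 5.75 FPKM in saline and 0.485, 0.398 and 1.15 FPKM in ISO (log2 difference -1.11, exact permutation p = 0.6). The adjusted p was 0.6 for each of these 3 ratios. A p that misses the threshold does not show that the genes moved alike, and with these numbers of libraries the test cannot pass 0.05.

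By level per length, the order in saline 1 and saline 2 was Hba-a1, Hba-a2, Hbb-bs, Hbb-bt, Alas2, Bpgm, Slc4a1 and Epb42. In saline 3, Bpgm lay above Alas2, and these neighbours did not differ beyond their spread in saline (20.3 ± 7.85 FPKM for Alas2 and 19.5 ± 1.97 FPKM for Bpgm). Hba-a2 was above Hbb-bs in every saline library, although their spreads over the saline group overlapped (1202 ± 358 and 908 ± 530 FPKM). In ISO 1 and ISO 2, Hbb-bs stood above Hba-a2, and in ISO 3 below it (4514 ± 212 and 4042 ± 2804 FPKM over the group). Alas2 was above Bpgm in every ISO library (106 ± 48.1 and 59.9 ± 17.2 FPKM), though the ranges of these genes over the ISO libraries overlapped.

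The tested genes varied together over the 6 libraries to different degrees. Each gene's log2(FPKM + 1) profile was set against the mean of the others, after centring and scaling. Pearson's r was 0.974 for Bpgm, 0.968 for Hba-a1 and Alas2, 0.941 for Hba-a2, 0.934 for Hbb-bt and 0.894 for Hbb-bs, and 0.435 for Slc4a1. These are descriptions over 6 points that share libraries and groups.

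Among the genes outside the group whose profiles were most like the mean profile of the tested genes were Fam57a (r = 0.994), Itgb4 (0.993), Gja4 (0.987), Mxra7 (0.986), Ostf1 (0.984), Angptl7 (0.983), Arhgap25 (0.982), Hist1h4n (0.978) and Ackr4 (0.978). Of 12262 genes compared, 177 (1.44%) had an r of at least 0.9, and with 2 groups and 6 libraries any gene that differs evenly between the groups scores high. Gja4 is a gap junction protein of arterial endothelium and Itgb4 an integrin of epithelial and endothelial cells. Angptl7, a secreted protein, was at 2.95, 2.56 and 2.87 FPKM in saline and 14.5, 14.2 and 24.0 FPKM in ISO, so its groups stood well apart.

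Other hemoglobin genes were also examined. Hbb-b1 is annotated as the adult major beta gene of other mouse strains, while C57BL/6 carries Hbb-bs and Hbb-bt, and how reads were shared between Hbb-b1 and these copies is not known. It held 263, 55 and 6 reads in saline and 169, 481 and 578 reads in ISO, or 42.3, 13.8 and 3.43 FPKM and 36.4, 148 and 163 FPKM. Its groups overlapped, unlike those of Hbb-bs and Hbb-bt (log2 difference 2.78, unadjusted p = 0.0169, adjusted p = 0.699, limma). The embryonic genes Hba-x, Hbb-y, Hbb-bh1 and Hbb-bh2 were listed at 0 in all libraries. Among globins that work outside red cells, the muscle oxygen store Mb was at 3236, 1894 and 10460 FPKM in saline and 2932, 2786 and 815 FPKM in ISO, overlapping and with its highest value in saline 3.

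Besides Alas2, the heme synthesis pathway was examined as a list. Of 14 genes tested, 10 were higher and 4 lower, 0 in either direction at an unadjusted p under 0.05, and the median log2 difference was 0.066, against 0.20 for all genes. This median turned negative under quantile normalization (-0.12), after median-of-ratios scaling (-0.13) and without saline 3 (-0.047). Alas1, the form of the first enzyme used by all tissues, was at 22.0, 20.1 and 33.5 FPKM in saline and 14.8, 17.3 and 21.6 FPKM in ISO, and its groups overlapped. Slc25a37, mitoferrin-1, which brings iron into mitochondria, was at 27.2, 17.6 and 3.93 FPKM in saline and 27.3, 31.0 and 28.8 FPKM in ISO. Its groups did not overlap, with ISO 1 just above saline 1 (log2 difference 1.13, unadjusted p = 0.101, limma).

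Among other genes of the red cell membrane and its skeleton, 14 of 18 tested were higher and 4 lower (median 0.28). An unadjusted p under 0.05 was reached by 2 higher genes and 1 lower gene, against 4.92% and 1.39% of all genes. Piezo1, a stretch-gated ion channel of red cells and of vessel walls, was at 13.7, 15.7 and 12.4 FPKM in saline and 18.7, 22.4 and 24.7 FPKM in ISO (log2 difference 0.61, unadjusted p = 0.0291, limma). Ank1, an ankyrin that heart and skeletal muscle also express, lay the other way, at 25.1, 23.2 and 25.8 FPKM in saline and 16.3, 13.4 and 13.0 FPKM in ISO (log2 difference -0.76, unadjusted p = 0.0086, limma). Tmod1, which caps actin filaments in red cells and in heart muscle, was at 166, 196 and 164 FPKM and 139, 138 and 100.3 FPKM. Several genes of this list have heart muscle as a second source, so the list does not report red cells alone.

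Of the other red cell enzymes tested, 11 of 13 were higher and 2 lower (median 0.26). An unadjusted p under 0.05 was reached by 2, both higher, against 4.92% of all genes. These were Pgd, of the pentose phosphate pathway, at 2.44, 4.91 and 3.34 FPKM in saline and 6.68, 9.48 and 10.2 FPKM in ISO, and Gsr, glutathione reductase, at 7.74, 7.36 and 4.31 FPKM and 8.27, 12.1 and 16.7 FPKM. Both are expressed in most tissues. Car1, a red cell carbonic anhydrase, was listed at 0 in all libraries.

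Genes linked to the reticulocyte stage, the last step of red cell maturation, were also examined. Of 11 tested, 10 were higher and 1 lower (median 0.48), where 68.1% of all genes were higher. The groups did not overlap for 7, all higher, against 12.8% of all genes. An unadjusted p under 0.05 was reached by 4, all higher, against 4.92% of all genes. Mkrn1, a ubiquitin ligase, was at 14.5, 14.7 and 11.4 FPKM in saline and 31.8, 27.7 and 38.9 FPKM in ISO, with ISO 3 highest (log2 difference 1.21, unadjusted p = 0.00124, limma).
Ube2l6, a conjugating enzyme for ubiquitin-like proteins that interferon also induces, was at 50.6, 50.3 and 57.1 FPKM in saline and 89.4, 84.2 and 159 FPKM in ISO. Bnip3l, which marks mitochondria for removal in reticulocytes, was at 28.7, 34.9 and 20.6 FPKM and 43.0, 45.1 and 57.9 FPKM. Both stood higher in every ISO library, and both have other sources in the heart.

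Among regulators that work in red cell precursors, 9 were tested. Of these, 7 were higher and 2 lower (median 0.27), where 68.1% of all genes were higher, and 0 had an unadjusted p under 0.05. The groups did not overlap for 4, all higher (Jak2, Lmo2, Tal1 and Epor), against 12.8% of all genes. Klf1, the erythroid factor that binds CACCC, was named after its values were seen: it was at 0.0661, 0 and 0 FPKM in saline and at 0 in all ISO libraries. Epor, the erythropoietin receptor, was at 1.45, 0.828 and 0 FPKM in saline and 1.46, 1.55 and 1.49 FPKM in ISO, and Hemgn was listed at 0 in all libraries. Among oxygen sensing genes, 8 of 12 were higher and 4 lower (median 0.14), 0 had an unadjusted p under 0.05, and the sign of the median turned without saline 3 (-0.047), after median-of-ratios scaling (-0.056) and under quantile normalization (-0.078). Epo itself, the kidney hormone that drives red cell formation, was listed at 0 in all libraries.

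Of 12 tested genes that clear hemoglobin and heme, 10 were higher and 2 lower (median 0.51), where 68.1% of all genes were higher. In each direction 1 had an unadjusted p under 0.05 (4.92% of all genes were higher and 1.39% lower at that p). Lrp1, the receptor for heme bound to hemopexin, was at 22.5, 25.1 and 14.6 FPKM in saline and 42.3, 48.1 and 40.5 FPKM in ISO (log2 difference 1.07, unadjusted p = 0.00454, limma). Hp, haptoglobin, which binds free hemoglobin, was lower on average, at 118, 147 and 327 FPKM in saline and 37.5, 51.8 and 152 FPKM in ISO, with overlapping groups (log2 difference -1.40, unadjusted p = 0.0482, limma). The other lower gene was Hpx, hemopexin, named after its values were seen, at 5.21, 2.46 and 98.8 FPKM in saline and 0.916, 3.02 and 4.69 FPKM in ISO, with overlapping groups and its highest value in saline 3. Hmox1, the enzyme that breaks down heme, was named likewise. It was at 38.3, 30.1 and 88.2 FPKM in saline and 17.1, 650 and 667 FPKM in ISO. Its groups overlapped through ISO 1 (log2 difference 2.06, unadjusted p = 0.170, limma). Macrophages express Lrp1 and Cd163, the receptor for the haptoglobin complex, which was at 7.97, 17.7 and 5.27 FPKM and 17.9, 14.9 and 15.6 FPKM.

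Markers of other blood cells were set beside these values. Of 14 platelet genes, 11 were tested and all 11 were higher (median 0.67), where 68.1% of all genes were higher. An unadjusted p under 0.05 was reached by 3, against 4.92% of all genes. The summed level was 36.8 to 51.6 FPKM in saline and 70.1 to 87.8 FPKM in ISO. Treml1, a receptor of platelet granules, was at 1.62, 1.65 and 0.288 FPKM in saline and 8.78, 5.59 and 7.70 FPKM in ISO (log2 difference 1.99, unadjusted p = 9.4e-04, limma). Clec1b, the platelet receptor for podoplanin, was at 12.6, 11.1 and 7.08 FPKM and 22.5, 17.1 and 28.0 FPKM. No platelet gene of the list was at 0 in all libraries. The summed platelet level, like the globin share, was higher in all ISO libraries than in all saline libraries, and its part in the globin result was not tested.

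The summed neutrophil markers and the summed lymphocyte markers overlapped between the groups. The summed neutrophil level was 79.2 to 127 FPKM in saline and 47.1 to 268 FPKM in ISO, with 4 of 6 tested genes higher and 2 lower (median 0.28, and -0.32 without ISO 3), and Ly6g was at 0 in all libraries. Of the 6 neutrophil genes tested, 1 (Csf3r) did not overlap, with ISO higher, against 12.8% of all genes. Csf3r alone had an unadjusted p under 0.05 (0.0297, limma), against 4.92% of all genes in that direction. Counts of 1 in 6 say little about neutrophils. The summed lymphocyte level was 14.1 to 24.4 FPKM and 14.7 to 62.9 FPKM, with 5 of 6 tested genes higher and 1 lower (median 0.51, and -0.34 without ISO 3). The high lymphocyte values were those of ISO 3, whose Cd79a, a B cell receptor subunit, was at 16.1 FPKM, against 2.66 and 2.05 FPKM in ISO 1 and ISO 2.

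Markers of macrophages and monocytes, and of other cells found in the heart, also lay at different levels. Of 13 macrophage and monocyte genes, 12 were higher and 1 lower (median 1.10). An unadjusted p under 0.05 was reached by 8, all higher, against 4.92% of all genes. The summed level was 510 to 957 FPKM in saline and 1058 to 2116 FPKM in ISO, so these sums did not overlap. Of 9 fibroblast genes 8 were higher (median 0.82), and of 9 endothelial genes tested 8 were higher (median 0.48), with endothelial sums of 410 to 996 FPKM and 963 to 1116 FPKM. All 12 genes of the ventricular cardiomyocyte list were lower (median -0.79). An unadjusted p under 0.05 was reached by 5 of them (1.39% of all genes were lower at that p). Their summed level was 30919 to 47663 FPKM in saline and 13144 to 22631 FPKM in ISO. Most genes of this list, the troponins among them, are expressed in atrial muscle too, so the list does not report the ventricle alone. The ventricular light chains Myl2 and Myl3 had overlapping groups (unadjusted p = 0.293 and 0.291, limma). In the atrial cardiomyocyte list, 5 of 7 genes were higher and 2 lower (median 0.12, and -0.38 without saline 3). Its summed level overlapped between the groups, at 10795 to 26992 FPKM in saline and 15505 to 18650 FPKM in ISO. The deposited values are relative to each library's total, so a smaller share for the abundant ventricular list leaves a larger share for all others. The part of this in the globin differences was not tested.

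**Figure D4:**
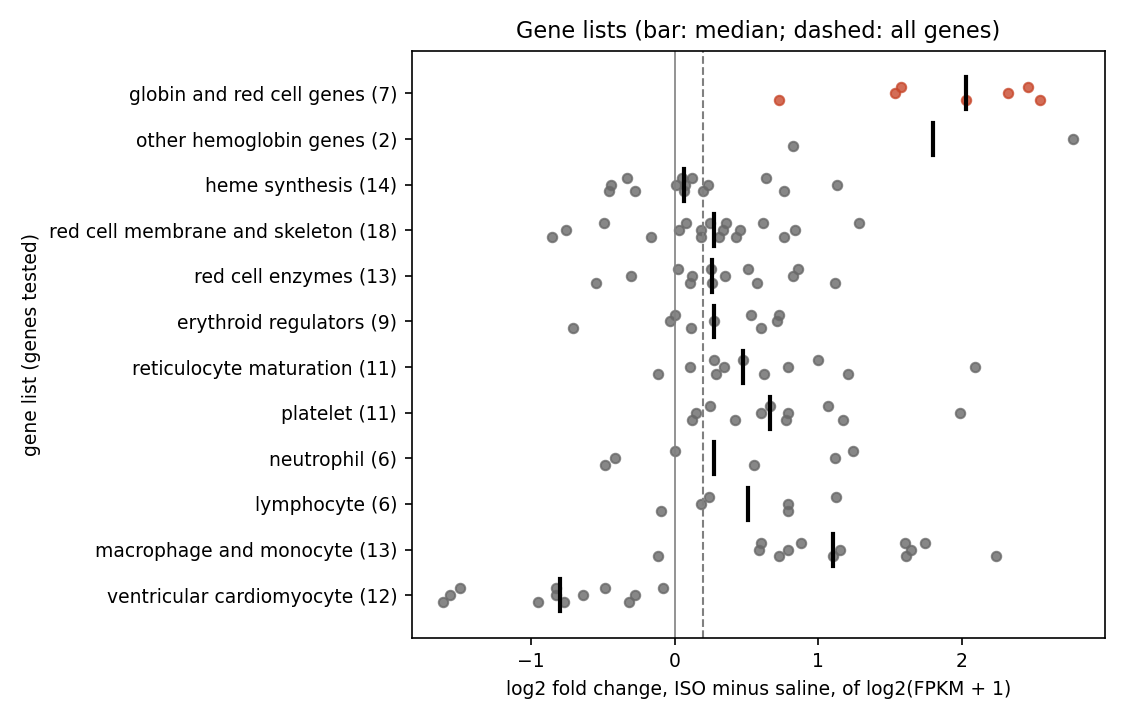
Difference of log2(FPKM + 1), ISO minus saline, of every tested gene in each list, with a black bar at the list's median, red points for the globin and red cell genes, and a dashed line at the median of all genes tested. The red points lie from 0.73 to 2.54, while the medians of the heme synthesis and reticulocyte maturation lists lie at 0.066 and 0.48 and that of the ventricular cardiomyocyte list at -0.79.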

How the data were processed

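The deposited FPKM values, 1 column per library, were used as the authors made them. The submitters' processing notes name the aligner HISAT2 2.1.0, the counter HTSeq 0.7.2, Cufflinks 2.2.1, DESeq, CASAVA 1.8 and fastp 0.20.0, without their order, and the build GRCm38. The annotation, the strand setting and the handling of reads shared by copies are not given in the sources used here. The strand of a read may not have been used, so genes with antisense partners are uncertain.

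Since a gene's FPKM values step by the worth of single reads, whole reads could be recovered (tolerance 0.0001) for 16815 (99.99%) of the 16816 genes with a value above 0 in 2 or more libraries. The main test was limma 3.58.1 (R 4.3.3, mean-variance trend, group only) on log2(FPKM + 1) for 12269 genes whose mean FPKM reached 1, with Benjamini-Hochberg adjustment at 0.05 over all of them. This scale understates the change of low genes. Ratios used exact two-sided permutation tests. The fit and the recovery were tested on simulated data. Python 3.11.15 with scipy 1.17.1, pandas 2.3.3, numpy 2.4.6 and matplotlib 3.10.9 served for the other steps.

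No pair of libraries within a group agreed within sampling noise (median chi-square at least 4.53 times the sampling value), so each counted as 1 sample. The genes and lists were chosen with earlier results of these data known. Named are all genes of the group, up to 4 genes of each list by p, and the 10 with the most similar profile, and a few of the genes so named are not reported here. Alternatives were other pseudocounts, filters, scalings, quality weights, voom, summed copies, a replicate block and each library left out.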

Additional observations from a re-analysis of the deposited data

How the results depend on the processing

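Over the 16 alternative settings of the limma fit, all 107 fold changes of the tested globin and red cell genes stayed above 0. With sample quality weights, 768 genes in all and 6 of the 7 passed the threshold, against 0 and 0. Leaving out 1 library called 0 to 16 genes in all, 16 of them without ISO 1. The log2 ranges with 1 library left out were 1.56 to 2.32 for Hba-a1, 1.05 to 1.92 for Hba-a2, 2.17 to 2.91 for Hbb-bs, 2.23 to 3.08 for Hbb-bt, 1.98 to 2.58 for Alas2, 1.32 to 1.72 for Bpgm and 0.40 to 1.26 for Slc4a1, whose value was 1.89 with voom on the recovered reads. Summing the copies gave 1.88 for alpha and 2.48 for beta. The Hbb-bs to Hbb-bt difference ran from -0.26 to 0.14 with 1 library left out (0.077 without saline 3, 0.14 without ISO 3). Alas2 relative to Hbb-bs ran from -0.46 to 0.27 (0.27 without saline 2, 0.077 without ISO 1, 0.14 without ISO 2). The cause was not tested. The ranges were 0.29 to 0.57 for Hba-a1 to Hba-a2, -1.07 to -0.33 for alpha to beta, -1.27 to -0.55 for Bpgm and -2.19 to -0.049 for Slc4a1, the last both relative to Hbb-bs. Of 204 list medians under alternatives, 26 moved by more than the spread within groups. The titles number the libraries of both groups alike, but same-numbered libraries did not deviate together (r of 0.0129, -0.148 and -0.0255), and 1 of 6 correlated best with its own number. With a replicate block, 0 of all genes and 0 of the 7 passed (adjusted p = 0.752 for each of the 7, limma). Epb42 and Slc4a1 are limited by their reads.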
